A study of Mus musculus with 6 samples.

Results

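The transcripts of 8 mouse genes were compared in cell lines grown out of *Myc*-driven liver tumors. The set consisted of *9030617O03Rik*, the gene of D-glutamate cyclase, and of 7 genes of glutamate and glutamine enzymes, *Gls2*, *Glul*, *Glud1*, *Got1*, *Got2*, *Gpt2* and *Asns*. The rows carrying these 8 gene names were taken from the 20856 genes with values, and all 8 were found and were among the 11617 genes that were tested. *9030617O03Rik* was chosen by its RPKM values, because its level was higher in the *Myc*; sg*Kmt2c* lines than in the *Myc*; sg*Trp53* lines of these same libraries, so its values are given as a description without a test. The other 7 genes were added by function, and their levels were tested.

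Tumors had been raised in female C57BL/6 mice of 8 to 10 weeks by hydrodynamic tail vein injection of a *Myc* transposon together with a px330 plasmid that carries Cas9 and a guide RNA. The guide targeted *Trp53*, the gene of the tumor suppressor p53, in 3 lines (sgp53 in the labels) and *Kmt2c*, the gene of the histone H3K4 methyltransferase MLL3, in the other 3 (sgMll3 in the labels), and RNA was sequenced without any further treatment. Per the study's methods the lines of a genotype came from different mice and were passaged in serum-containing DMEM on collagen until no fibroblasts were seen. The labels call the *Myc*; sg*Kmt2c* lines 1, 2A and 2T1, here replicates 1, 2 and 3. The shared number in 2A and 2T1 could mark a shared mouse, which the labels do not settle, and with both counted as 1 sample 0 of all genes tested passed the threshold, against 15 with 3 separate lines (limma). All 6 lines came from cells that received the *Myc* transposon and a plasmid expressing Cas9, and none had both *Trp53* and *Kmt2c* left untargeted, so what belongs to the loss of one gene and what to the loss of the other cannot be told apart.

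Glutamate and glutamine carry nitrogen between amino acids, nucleotides and ammonia. Glutaminase splits glutamine into glutamate and ammonia, glutamine synthetase runs the opposite reaction, and glutamate dehydrogenase and the aminotransferases exchange glutamate with the Krebs cycle intermediate 2-oxoglutarate. In normal liver these steps are divided along the lobule, with liver-type glutaminase and urea synthesis in periportal hepatocytes and glutamine synthetase in a rim of pericentral hepatocytes. D-glutamate cyclase is a mitochondrial enzyme that turns D-glutamate, the mirror image of the common amino acid, into 5-oxo-D-proline.

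Between 5312182 and 6878625 reads on genes lay behind the *Myc*; sg*Trp53* libraries and between 3680068 and 4704539 behind the *Myc*; sg*Kmt2c* libraries, all run in the same lanes. The *Trp53* transcript was at 17.2 to 19.4 RPKM (reads scaled to transcript length in kilobases and to library size) in the *Myc*; sg*Trp53* lines and at 92.2 to 124 RPKM in the *Myc*; sg*Kmt2c* lines (adjusted p = 0.014 from limma). *Kmt2c* lay at 18.4 to 24.2 and at 9.51 to 24.97 RPKM, and the lines of the genotypes overlapped. The *Myc*; sg*Kmt2c* line 1 stood apart from the rest. Its correlation with the other libraries was 0.759 to 0.836 on the log2 scale, against 0.881 to 0.951 among the other 5, and it lay outside the range of the other 5 in 59.0% of the genes tested, against 20.2% to 35.5% for each of the others. The 7 hepatocyte markers summed to 1230 RPKM in this line, mostly from *Hnf4a*, and to 4.14 to 175 RPKM in the other 5, the 175 also mostly from *Hnf4a*. The deposited transcript length of *Hnf4a* is only 431 bases, which raises its RPKM per read and its weight in the sum. Its 2409 reads in this line gave 1186 RPKM, whereas 190 reads of *Afp* over 2086 bases gave 19.3 RPKM. Albumin, the main secreted product of hepatocytes, was at 0.644 to 4.36 RPKM in all 6. The 5 epithelial markers summed to 5811 RPKM in this line and to 62.6 to 990 RPKM in the others. The 6 fibroblast markers summed to 0.282 RPKM in this line, to 953 RPKM in *Myc*; sg*Trp53* line 2, mostly from *Col3a1*, and to 14.04 to 146 RPKM in the remaining 4. The 5 immune markers summed to 19.7 to 49.3 RPKM in *Myc*; sg*Trp53* lines and to 5.35 to 14.1 RPKM in *Myc*; sg*Kmt2c* lines. This gap came from *Lyz2* alone, at 29.0, 17.1 and 45.3 RPKM against 0, 0.214 and 12.4 RPKM. *Cd68* overlapped, at 7.60, 2.60 and 4.01 RPKM against 5.35, 5.29 and 1.71 RPKM. *Ptprc* was at most at 0.0655 RPKM in any line, and *Cd3e* and *Cd79a* were at 0 throughout. The 3 endothelial markers summed to at most 0.284 RPKM. The part of these differences in the results below was not tested, except where values without line 1 are given.

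The sequence before the start of *9030617O03Rik* is shown because this gene carries the largest difference of the set, and those before *Asns* and *Got1* because they hold the only matches to the motifs searched among the 7 members that the RefSeq promoter table listed. Each is the 250 bases upstream of the RefSeq start in GRCm38.p6, read 5′ to 3′ on the gene's own strand, at chr12:100778807-100779056 (plus strand) for *9030617O03Rik*, chr6:7693210-7693459 (minus strand) for *Asns* and chr19:43524606-43524855 (minus strand) for *Got1*. Capitals mark a match to TGATGNAA, the core of the C/EBP-ATF response element known from the *Asns* promoter, or to the half-site consensus of p53, each searched on both strands.
9030617O03Rik: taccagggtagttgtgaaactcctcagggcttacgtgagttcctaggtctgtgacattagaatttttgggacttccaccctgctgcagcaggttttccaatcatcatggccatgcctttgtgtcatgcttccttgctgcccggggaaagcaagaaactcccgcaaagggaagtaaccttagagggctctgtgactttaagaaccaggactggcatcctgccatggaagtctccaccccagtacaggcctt
Asns: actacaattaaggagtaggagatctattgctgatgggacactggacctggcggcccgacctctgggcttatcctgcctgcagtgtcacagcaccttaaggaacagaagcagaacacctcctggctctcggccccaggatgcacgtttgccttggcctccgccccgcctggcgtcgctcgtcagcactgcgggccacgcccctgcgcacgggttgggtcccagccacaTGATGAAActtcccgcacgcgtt
Got1: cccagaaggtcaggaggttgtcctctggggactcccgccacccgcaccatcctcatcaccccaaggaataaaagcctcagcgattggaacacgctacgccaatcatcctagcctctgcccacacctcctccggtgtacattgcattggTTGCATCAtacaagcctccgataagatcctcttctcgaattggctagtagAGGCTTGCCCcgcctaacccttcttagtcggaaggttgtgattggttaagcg

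No letters matching either motif were found in the 250 bases before *9030617O03Rik*, nor in those before *Glul*, *Glud1*, *Got2* and *Gpt2*. The *Asns* sequence held TGATGAAA, with its first base at position -23 from the start. The *Got1* sequence held TTGCATCA, the same motif read on the opposite strand, at position -102, and the p53 half-site match AGGCTTGCCC at position -52, which do not overlap. Of all 32851 promoters in the table, 3.45% held TGATGNAA and 7.13% held a p53 half-site match in the same window. These matches are descriptions of the letters only, and *Gls2* had no entry. The RefSeq start of *Asns* lies slightly inside the span that the deposited table gives the gene.

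*9030617O03Rik* (ENSMUSG00000021185, chr12:100779057-100896981 in GRCm38) was nearly silent in one genotype and evenly transcribed in the other. The *Myc*; sg*Trp53* lines 1, 2 and 3 had 1, 3 and 16 reads on the gene, or 0.0558, 0.192 and 0.790 RPKM. The *Myc*; sg*Kmt2c* lines 1, 2 and 3 had 457, 344 and 325 reads, or 33.0, 31.7 and 25.9 RPKM. Thus every *Myc*; sg*Kmt2c* line was far above every *Myc*; sg*Trp53* line, and within the *Myc*; sg*Kmt2c* genotype the levels were close together.

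The highest *Myc*; sg*Kmt2c* line was 1.28-fold above the lowest, and line 1, which stood apart for most genes, did not do so for this one. The lowest *Myc*; sg*Kmt2c* line was 32.7-fold above the highest *Myc*; sg*Trp53* line. The low levels rest on few reads: the exact Poisson 95% intervals, which cover counting error only, were 0.00141 to 0.311 RPKM, 0.0395 to 0.560 RPKM and 0.451 to 1.28 RPKM in the *Myc*; sg*Trp53* lines. The interval of line 3 did not overlap that of line 1 and overlapped that of line 2. In the *Myc*; sg*Kmt2c* lines the intervals were 30.02 to 36.1, 28.5 to 35.3 and 23.1 to 28.8 RPKM. In bulk libraries such as these, fewer expressing cells and less RNA per cell cannot be told apart.

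The difference of the group means on the log2(RPKM + 1) scale was 4.56 for *9030617O03Rik*, and it ranged from 4.41 to 4.79 when single lines were left out. Adding 1 to each RPKM shrinks differences of genes with low levels, and with 0.1 added in its place the difference was 6.46. Of the 11617 genes tested, 15 passed an adjusted p-value of 0.05 (limma with Benjamini-Hochberg adjustment), which is 0.129%, and both sets of lines were fully separate in 16.2%. By direction, 0.0516% passed with higher and 0.0775% with lower levels in the *Myc*; sg*Kmt2c* lines. The median of all genes tested was -0.09. *9030617O03Rik* owes its place in the set to this same contrast, so nothing is read from its position against these shares.

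Against the 7 enzymes, all on the per-length RPKM scale, *9030617O03Rik* changed rank with the genotype. It had the lowest level of the 8 genes in each *Myc*; sg*Trp53* line. In the *Myc*; sg*Kmt2c* lines it was above *Gls2* and *Glul* in line 1, above *Gls2* and *Gpt2* in line 2, and above *Gpt2* alone in line 3. *Asns* had the highest level of the 8 in 4 of the 6 lines, and *Glud1* in *Myc*; sg*Trp53* line 2 and *Myc*; sg*Kmt2c* line 1.

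**Figure D1:**
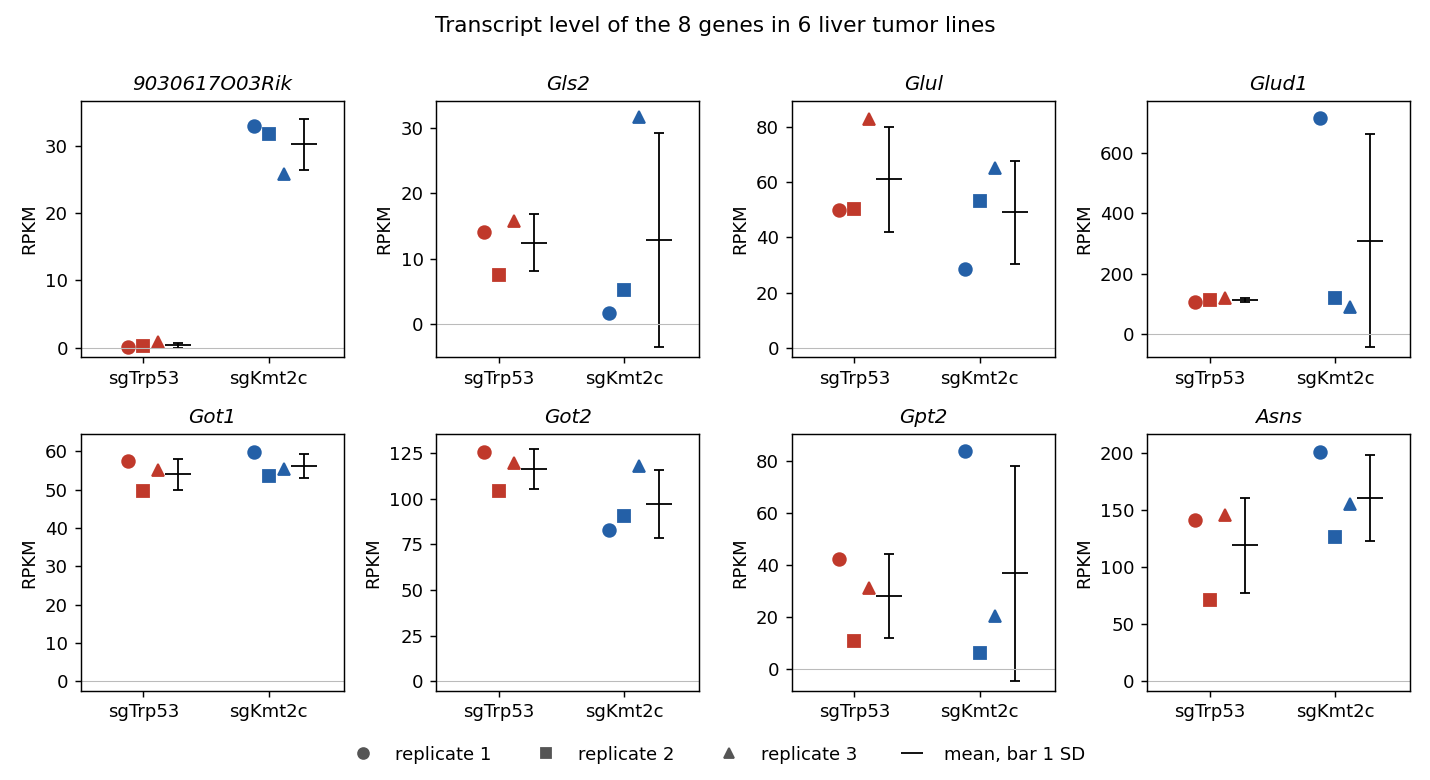
RPKM (vertical axes, linear, each with its own scale) of the 8 genes in the 3 *Myc*; sg*Trp53* lines (red) and the 3 *Myc*; sg*Kmt2c* lines (blue), with circles, squares and triangles for lines 1, 2 and 3 and black marks for the mean with a bar of 1 SD. *9030617O03Rik* lies below 1 RPKM in every red line and between 25.9 and 33.0 RPKM in every blue line, whereas red and blue points overlap for the other 7 genes, with line 1 of the blue group far above the rest for *Glud1* at 718 RPKM.

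For none of the 7 enzymes did a difference between the genotypes pass the test. No enzyme was past the adjusted p-value of 0.05 (0 of 7, against 0.129% of all genes tested), none had an unadjusted p-value under 0.05 (against 8.58%), and in none did the lines of the genotypes separate (against 16.2%, limma for both p-values). The log2 fold changes, *Myc*; sg*Kmt2c* minus *Myc*; sg*Trp53*, were above 0 for 3 enzymes and below 0 for 4, with a median of -0.11 beside -0.09 for all genes tested and a range of -0.65 to 0.81. The lowest adjusted p-value among them was 0.712 (limma). With 3 lines against 3, limma could miss a difference of moderate size where lines of a genotype vary widely. The exact permutation test of a single gene cannot go below 0.1 here, so at 0.05 it could pass no difference of any size.

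The enzymes that make and use glutamine came first in the pathway. *Gls2* (ENSMUSG00000044005, chr10:128194457-128210004) encodes liver-type glutaminase and has been described as a p53 target gene in human cells. It was at 14.1, 7.52 and 15.7 RPKM in the *Myc*; sg*Trp53* lines 1, 2 and 3. In the *Myc*; sg*Kmt2c* lines it was at 1.73, 5.27 and 31.6 RPKM, which include both the lowest and the highest level of the 6 lines.

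The 18.3-fold range of *Gls2* within the *Myc*; sg*Kmt2c* genotype was the widest of the 7 enzymes in either genotype, against 2.08-fold within the *Myc*; sg*Trp53* genotype. The means were nearly equal, 12.5 ± 4.34 and 12.9 ± 16.3 RPKM (SD, n = 3 lines each). The log2 fold change was -0.65 (standard error 0.870, 95% interval -2.73 to 1.43, adjusted p = 0.817 from limma). It was 0.15 without *Myc*; sg*Kmt2c* line 1 and -1.64 without *Myc*; sg*Kmt2c* line 3, the latter with an unadjusted p-value of 0.0193 and an adjusted p-value of 0.320 (limma), so single lines set the direction. One end of *Gls2* overlaps *Spryd4*, which was at 6.10 to 8.20 RPKM in all 6 lines.

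*Glul* (ENSMUSG00000026473, chr1:153899944-153909723) encodes glutamine synthetase, the pericentral enzyme that fixes ammonia onto glutamate. It was at 49.9, 50.2 and 82.9 RPKM in the *Myc*; sg*Trp53* lines, against 28.7, 53.3 and 65.0 RPKM in the *Myc*; sg*Kmt2c* lines. The lowest level was in *Myc*; sg*Kmt2c* line 1 and the highest in *Myc*; sg*Trp53* line 3, so the genotypes overlapped. Between these, the remaining *Myc*; sg*Trp53* lines (49.9 and 50.2 RPKM) lay below the remaining *Myc*; sg*Kmt2c* lines (53.3 and 65.0 RPKM). On the log2 scale the difference was -0.34 (standard error 0.361, 95% interval -1.21 to 0.52, adjusted p = 0.778 from limma) and was -0.01 without *Myc*; sg*Kmt2c* line 1.

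Set against each other within a library, the synthetase and the liver-type glutaminase shifted over a wide range. *Glul* was 3.52, 6.67 and 5.28 times the level of *Gls2* per transcript length in the *Myc*; sg*Trp53* lines 1, 2 and 3, and 16.6, 10.1 and 2.05 times in the *Myc*; sg*Kmt2c* lines. The *Myc*; sg*Kmt2c* lines again held both ends of the range.

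*Asns* (ENSMUSG00000029752, chr6:7675169-7693254) encodes asparagine synthetase, which moves the amide nitrogen of glutamine onto aspartate and is known as a target of the amino acid response factor ATF4. It was at 141, 71.2 and 145 RPKM in the *Myc*; sg*Trp53* lines 1, 2 and 3, against 200.4, 126 and 155 RPKM in the *Myc*; sg*Kmt2c* lines. *Myc*; sg*Trp53* line 2 was lowest and *Myc*; sg*Kmt2c* line 1 highest, with overlap between. The means were 119 ± 41.5 and 160.4 ± 37.5 RPKM (SD, n = 3 each). The log2 fold change of 0.47 (standard error 0.333, 95% interval -0.33 to 1.27, adjusted p = 0.712 from limma) did not pass the test, and it ranged from 0.14 without *Myc*; sg*Trp53* line 2 to 0.65 with single lines left out. The match to the C/EBP-ATF core lies in the *Asns* sequence printed above.

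*Glud1* (ENSMUSG00000021794, chr14:34310727-34345144), which encodes the mitochondrial glutamate dehydrogenase, had the most unusual single value of the set. Levels were 107, 111 and 120 RPKM in the *Myc*; sg*Trp53* lines, 718 RPKM in *Myc*; sg*Kmt2c* line 1, and 120.0 and 90.1 RPKM in *Myc*; sg*Kmt2c* lines 2 and 3. Apart from line 1 all lines lay close together, and line 1, with 11055 reads on the gene, was 5.98-fold above the next highest. Of the 11617 genes tested, 82 (0.706%) had this line at least as far above the other 5 on the RPKM + 1 scale.

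The log2 fold change of *Glud1*, 0.81 (standard error 0.740, 95% interval -0.95 to 2.58, adjusted p = 0.752 from limma), was -0.11 without that line. The nearest gene, *Fam35a*, begins 0.224 kb away and was at 7.14 RPKM in line 1 and at 3.38 to 4.53 RPKM in the other 5. *Sncg*, the gene of gamma-synuclein, 25.1 kb away on the other side, was at 9.71 RPKM (39 reads) in line 1 and at most at 0.824 RPKM elsewhere. *Bmpr1a*, which begins 100 kb from the start of *Glud1*, was at 23.2 RPKM in line 1 and at 26.2 to 33.7 RPKM in the other 5. Of 11 tested genes within 2 Mb, *Glud1* included, 4 were at least 2-fold above the median of the other 5 in line 1 (RPKM + 1). This is 36.4%, against 10.5% of all genes tested, in a window chosen after the values were seen. Of the 4, *Glud1* alone stood far above each of the other 5 lines. *Anxa8* was high in all *Myc*; sg*Kmt2c* lines (453, 396 and 262 RPKM). *Arhgap22*, at 79.5 RPKM in line 1, was at 66.5 and 53.9 RPKM in *Myc*; sg*Trp53* lines 1 and 3. *Ogdhl*, at 8.18 RPKM in line 1, was at 7.03 RPKM in *Myc*; sg*Trp53* line 2. Gene copy number was not measured here.

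**Figure D2:**
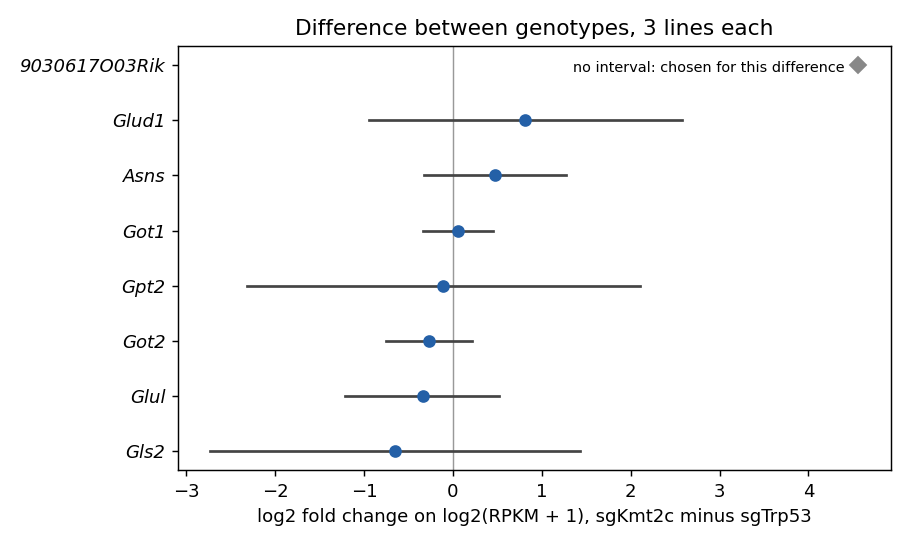
Log2 fold change on the log2(RPKM + 1) scale (horizontal axis), *Myc*; sg*Kmt2c* minus *Myc*; sg*Trp53*, for each gene, with the 95% interval from limma as a line for the 7 tested enzymes and none for *9030617O03Rik* (grey diamond). All 7 intervals contain 0, the narrowest being that of *Got1* (-0.34 to 0.45) and the widest that of *Gpt2* (-2.32 to 2.11).

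The aspartate aminotransferases were the steadiest genes of the set. *Got1* (ENSMUSG00000025190, chr19:43499752-43524605), the cytosolic enzyme of the malate-aspartate shuttle, was at 57.4, 49.5 and 55.1 RPKM in the *Myc*; sg*Trp53* lines, against 59.7, 53.5 and 55.2 RPKM in the *Myc*; sg*Kmt2c* lines. All 6 lines fell within a 1.21-fold range, *Myc*; sg*Kmt2c* line 1 included. The fitted difference was 0.06 on the log2 scale (standard error 0.165, 95% interval -0.34 to 0.45, adjusted p = 0.924 from limma).

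*Got2* (ENSMUSG00000031672, chr8:95864134-95888547), the mitochondrial partner of *Got1*, was at 125, 104 and 120 RPKM in the *Myc*; sg*Trp53* lines, against 83.0, 90.4 and 118 RPKM in the *Myc*; sg*Kmt2c* lines. The lowest levels were in *Myc*; sg*Kmt2c* lines 1 and 2, while line 3 of that genotype was within the range of the *Myc*; sg*Trp53* lines. The genotypes differed by -0.27 on the log2 scale (standard error 0.200, 95% interval -0.75 to 0.21, adjusted p = 0.719 from limma). Within a library *Got2* was 2.10 to 2.18 times the level of *Got1* in the *Myc*; sg*Trp53* lines and 1.39, 1.69 and 2.14 times in the *Myc*; sg*Kmt2c* lines 1, 2 and 3. Reads of the processed pseudogene *Got2-ps1*, at 5.74 to 8.87 RPKM, could be exchanged with those of *Got2*.

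*Gpt2* (ENSMUSG00000031700, chr8:85492576-85527560) encodes the mitochondrial alanine aminotransferase, which joins pyruvate to glutamate nitrogen. It was at 42.4, 10.8 and 31.1 RPKM in the *Myc*; sg*Trp53* lines, against 83.5, 6.19 and 20.6 RPKM in the *Myc*; sg*Kmt2c* lines. The order of the lines did not follow the genotype, and both the highest (line 1) and the lowest (line 2) level were in *Myc*; sg*Kmt2c* lines, 13.5-fold apart. Between the genotypes the log2 difference was -0.11 (standard error 0.926, 95% interval -2.32 to 2.11, adjusted p = 0.974 from limma), and it ran from -1.03 without *Myc*; sg*Kmt2c* line 1 to 0.75 without *Myc*; sg*Kmt2c* line 2.

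The order of the lines by *Gpt2* partly followed that of the summed epithelial markers, a sum mostly of the keratins *Krt8*, *Krt18* and *Krt19*. The lines with the 4 highest epithelial sums were, from the top, *Myc*; sg*Kmt2c* line 1, *Myc*; sg*Trp53* line 1, *Myc*; sg*Trp53* line 3 and *Myc*; sg*Kmt2c* line 3, and this was also their order for *Gpt2*. Of the single markers *Krt18* alone had these lines in this order. *Krt8*, *Krt19*, *Epcam* and *Cdh1* also had *Myc*; sg*Kmt2c* line 1 highest but ordered the rest otherwise. At the low end *Myc*; sg*Trp53* line 2 (62.6 RPKM of epithelial markers) and *Myc*; sg*Kmt2c* line 2 (237 RPKM) changed places. *Glud1* followed this order in line 1 only. This relation was noticed in the data, and its part in the *Gpt2* values was not tested.

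**Figure D3:**
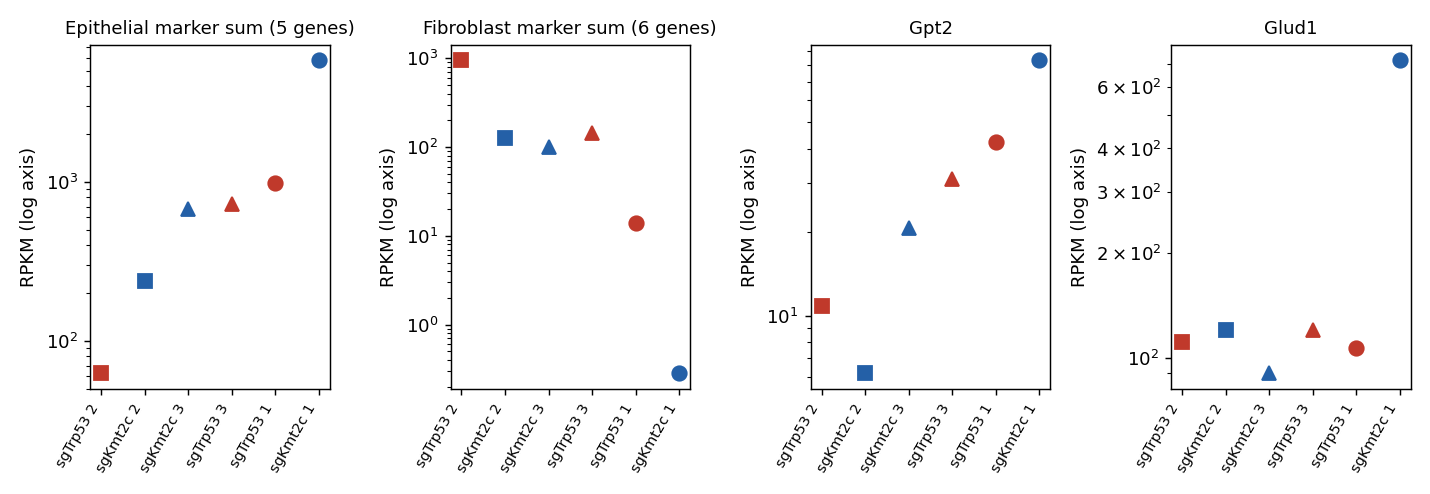
Summed RPKM of 5 epithelial and of 6 fibroblast marker genes and RPKM of *Gpt2* and *Glud1* (vertical axes, logarithmic), with the 6 lines along the horizontal axis in the order of the epithelial sum in every panel (red, *Myc*; sg*Trp53*; blue, *Myc*; sg*Kmt2c*; circles, squares and triangles for lines 1, 2 and 3). *Gpt2* climbs along this order from the second line to the last, at 83.5 RPKM, while *Glud1* stays between 90.1 and 120 RPKM until the last line.

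Across the 8 genes, *Myc*; sg*Kmt2c* line 1 was the highest library for *9030617O03Rik*, *Glud1*, *Got1*, *Gpt2* and *Asns* and the lowest for *Gls2*, *Glul* and *Got2*. Its distance from the other 5 lines varied from gene to gene. It was 1.04-fold above the next line for *9030617O03Rik* and for *Got1*, 1.29-fold for *Asns*, 1.97-fold for *Gpt2* and 5.98-fold for *Glud1*. It was 3.04-fold below the next line for *Gls2*, 1.74-fold for *Glul* and 1.09-fold for *Got2*.

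Tested genes close to *9030617O03Rik* on chromosome 12 did not pass the test. *Rps6ka5*, the nearest gene upstream at a distance of 54.0 kb, differed by -0.41 on the log2 scale (limma, adjusted p = 0.720). On the other side *Ccdc88c*, 15.7 kb away, differed by 0.56 (limma, adjusted p = 0.760). *Ttc7b*, 258 kb away, differed by -0.76 (limma, adjusted p = 0.711). *Gm8482*, which overlaps *9030617O03Rik*, was at 0 in all 6 lines. The library preparation does not mark strand, so reads over bases that 2 genes share could belong to either. How the counting treated strand is not given in the sources used here.

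The genes whose pattern over the 6 libraries was most like that of *9030617O03Rik* were *Cdkn1a*, *Anxa8*, *Eda2r*, *Phlda3* and *Msx1*. Likeness was the root-mean-square distance after each gene was centered on its own mean of log2(RPKM + 1), and these 5 had distances of 0.619, 0.667, 0.690, 0.747 and 0.799. *Cdkn1a*, the gene of the cell cycle inhibitor p21, was at 17.3, 7.54 and 36.1 RPKM in the *Myc*; sg*Trp53* lines, against 295, 217 and 261 RPKM in the *Myc*; sg*Kmt2c* lines. Of the other members *Glud1* came nearest, at a distance of 2.07 and rank 1037, and *Gls2* was farthest, at 2.87 and rank 10909 of all genes tested. A small distance here largely restates a large difference between the genotypes, and no test was made.

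The wider pathway was followed in 10 lists of 60 genes around glutamate and glutamine, chosen with earlier results known, of which 57 were in the table and 38 could be tested. None passed the adjusted p-value of 0.05 in either direction (against 0.129% of all genes tested), and 2 had an unadjusted p-value under 0.05, against 8.58% of all genes tested (limma). These were *Gclc* and *Ccbl2*, and with single lines left out the number was 1 to 9, the 9 without *Myc*; sg*Kmt2c* line 3 and 5 without *Myc*; sg*Kmt2c* line 1. The share of all genes tested moved too, to 12.7% without *Myc*; sg*Kmt2c* line 3 and 9.25% without *Myc*; sg*Kmt2c* line 1. It ranged from 4.85% to 12.7% over the lines left out (limma). With all lines kept, the log2 fold changes of the 38 were above 0 for 19 and below 0 for 19, with a median of -0.02 and a range of -1.95 to 2.55. Both sets of lines were fully separate in 5 of the 38, against 16.2% of all genes tested.

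The step from glutamate to glutathione held the lowest p-value of these lists. *Gclc*, the catalytic subunit of glutamate-cysteine ligase, was at 49.7, 37.5 and 32.4 RPKM in the *Myc*; sg*Trp53* lines, against 289, 126 and 125 RPKM in the *Myc*; sg*Kmt2c* lines. All lines of one genotype were above all lines of the other, with line 1 highest. Its log2 fold change of 2.05 (standard error 0.371) came with an unadjusted p-value of 0.00104 and an adjusted p-value of 0.202 (limma). The adjusted p-value lay between 0.106 and 0.687 in every alternative tried, and without line 1 the log2 fold change was 1.65. *Gss*, the glutathione synthetase gene, was at 22.4 to 28.7 and at 31.5 to 65.6 RPKM, also without overlap (log2 fold change 0.70, adjusted p = 0.592 from limma). Of the 4 tested genes of this list 3 were above 0, with a median of 0.35.

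Among 11 other enzymes that make or use glutamate and glutamine, 8 could be tested, 3 of them above 0 and 5 below, with a median of -0.17. *Ccbl2*, a kynurenine aminotransferase that also accepts glutamine, was at 27.0, 5.77 and 10.1 RPKM in the *Myc*; sg*Trp53* lines, against 0.674, 4.45 and 4.71 RPKM in the *Myc*; sg*Kmt2c* lines (log2 fold change -1.78, adjusted p = 0.560 from limma). Its unadjusted p-value was 0.0363, and it lay between 0.0528 and 0.111 without *Myc*; sg*Trp53* line 1 or 3, without *Myc*; sg*Kmt2c* line 1, with limma voom and with the replicate block (limma). *Bcat1*, the cytosolic branched-chain aminotransferase, was at 6.36 to 14.3 RPKM and at 0, 1.52 and 9.86 RPKM, with overlap (log2 fold change -1.95, adjusted p = 0.592 from limma). The 9 glutamine amidotransferases, which feed glutamine nitrogen into nucleotides, amino sugars and NAD, had 3 above 0 and 6 below, a median of -0.19, and *Nadsyn1* (0.66) and *Pfas* (-0.60) at the ends on the log2 fold change scale.

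In the branch from glutamate to proline and ornithine 4 of 7 genes were above 0, with a median log2 fold change of 0.07 and *Aldh4a1* at -0.68. In the GABA branch both tested genes of 4 listed, *Aldh5a1* (-0.40) and *Abat* (-0.37), were below 0. Serine synthesis, whose aminotransferase step uses glutamate, had 2 of 4 above 0 and a median of -0.29, with *Shmt1* (-0.83) and *Phgdh* (-0.62) largest. Of the 3 D-amino acid enzymes, serine racemase *Srr* was the single one tested, at 0.31, whereas *Dao* and *Ddo*, the D-amino acid and D-aspartate oxidases, were at most at 0.159 and 0.492 RPKM in any line.

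Most liver-specific genes around these enzymes were low in these lines. In the urea cycle *Ass1*, argininosuccinate synthase, was at 1.26, 2.66 and 3.68 RPKM in the *Myc*; sg*Trp53* lines, against 2.00, 89.9 and 27.4 RPKM in the *Myc*; sg*Kmt2c* lines (log2 fold change 2.55, adjusted p = 0.600 from limma), and *Asl* had a log2 fold change of 0.25. The other 4 genes of the cycle were too low to test, including *Cps1*, at most at 1.38 RPKM. Of 7 pericentral genes *Tbx3* alone could be tested (log2 fold change 0.80), with *Cyp2e1* and *Cyp1a2* near or at 0, and of 5 periportal genes none could.

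**Figure D4:**
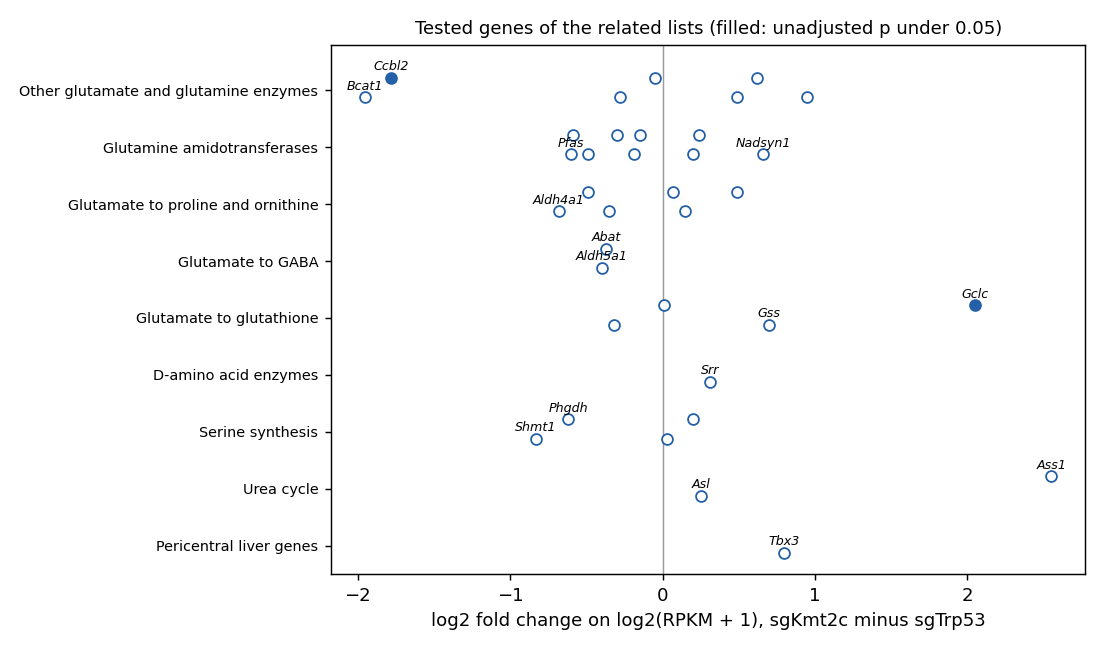
Log2 fold change on the log2(RPKM + 1) scale (horizontal axis), *Myc*; sg*Kmt2c* minus *Myc*; sg*Trp53*, for the tested genes of the related lists that are reported here (1 list per row on the vertical axis, each circle a gene, labels for the genes named in the text). Filled circles have an unadjusted p-value under 0.05 in limma, which holds for *Gclc* (2.05) and *Ccbl2* (-1.78) only, and the points lie on both sides of 0 in most rows.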

How the data were processed

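RNA-seq libraries of 3 *Myc*; sg*Trp53* and 3 *Myc*; sg*Kmt2c* liver tumor cell lines were analysed, grouped by the sample labels. The authors trimmed reads with Trimmomatic, aligned them to GRCm38 (mm10) with STAR and counted them per gene with HTSeq. The deposited values are RPKM per the file header and FPKM per the methods, beside a single transcript length per gene. The table holds 21065 rows, 209 of them without values, and 6 sample columns of other samples that were not used. The authors' deposited table of DESeq2 1.8.2 fold changes and p-values was not used. Library preparation (TruSeq RNA v2) does not mark strand.

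Multiplying RPKM by transcript length gave whole reads, within 0.01 of a read, for 100% of the values above 0. Chi-square per gene between replicates was 28.5 to 85.6, far above counting noise, so no library was treated as a copy of another. This does not bear on whether lines share a mouse.

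The 11617 genes that reached an RPKM of 1 in 3 or more of the 6 libraries were tested on log2(RPKM + 1) in R 4.3.3 by limma 3.58.1 (eBayes with trend), genotype as the single term, two-sided, with Benjamini-Hochberg adjustment over all of them at 0.05. Fold changes on this scale understate those of low genes. Intervals are 95% intervals of the fit, and single-gene permutation tests are exact and two-sided. The fit was tested on simulated reads with large changes in well-counted genes and the same spread parameter for every gene. That test does not show how the fit handles smaller differences or genes as variable between lines as *Gls2*, *Glud1* and *Gpt2*. Alternatives changed the pseudocount, the filter, the scaling, the moderation, the model of the reads (limma voom), a replicate block, the counting of *Myc*; sg*Kmt2c* lines 2 and 3 as 1 sample, and left out each line in turn.

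All members are named. Related lists are given by counts, with values for genes past an adjusted p-value of 0.05 or otherwise the 2 with the largest log2 fold change in size. Some genes that these rules name are not reported here. Members, lists and markers were chosen with earlier results of these data known. Neighbours are the 3 nearest genes on each side in the deposited coordinates. Promoter sequences are from RefSeq (GRCm38.p6), where 7 of the 8 members matched. Plots were drawn with matplotlib 3.10.9.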

Additional observations from a re-analysis of the deposited data

How the results depend on the processing

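No enzyme of the 7 passed the adjusted p-value of 0.05 in any of the 16 alternatives tried, and the lowest adjusted p-value reached was 0.320, for *Gls2* without *Myc*; sg*Kmt2c* replicate 3 (limma). The number of genes past the threshold over the whole table, 15, was less stable: 6 with a pseudocount of 0.1, 5 with no filter on low values, 4 with limma voom on the recovered reads, 0 with *Myc*; sg*Kmt2c* replicates 2 and 3 counted as 1 sample (1031 genes at an unadjusted p-value under 0.05), and 0 to 8 with single lines left out (563 to 1477 at an unadjusted p-value under 0.05), the 8 without *Myc*; sg*Kmt2c* replicate 1 and 0 without any other line. In the other 5 alternatives the count was 11 to 20. With the replicate number as a block it was 0, with 1085 genes at an unadjusted p-value under 0.05, and the block left the enzymes at 0 of 7. Same-numbered lines of the genotypes deviated together with correlations of 0.19, 0.40 and 0.03. Lines 1 and 2 correlated best with their own number, and line 3 did not. With 3 lines a genotype these correlations cannot decide whether the numbers pair lines, and the labels do not say it.

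The log2 fold change of *9030617O03Rik* was 6.46 with a pseudocount of 0.1, 5.27 with 0.5 and 6.89 with limma voom, and 4.41 to 4.79 with single lines left out. Directions of the small differences turned. *Gls2* was at 0.15 and *Glud1* at -0.11 without *Myc*; sg*Kmt2c* replicate 1, with ranges over the left-out lines of -1.64 to 0.15 and of -0.11 to 1.38. *Got1* was at -0.0038 without *Myc*; sg*Trp53* replicate 2 (range -0.0038 to 0.10). *Gpt2* was at 0.46 with *Myc*; sg*Kmt2c* replicates 2 and 3 as 1 sample and at 0.28, 0.06 and 0.75 without *Myc*; sg*Trp53* replicates 1 and 3 and *Myc*; sg*Kmt2c* replicate 2 (range -1.03 to 0.75). *Asns* (0.14 to 0.65), *Glul* (-0.58 to -0.01) and *Got2* (-0.42 to -0.17) kept their direction in all 16 alternatives. The cause of these shifts was not tested beyond the line left out. With 3 lines a genotype and standard errors of 0.165 to 0.926 on the log2 scale, only large differences of the enzymes could pass the test.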

Other observations

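*Gpt*, the cytosolic alanine aminotransferase and counterpart of *Gpt2*, was singled out after its values were seen. It was at 3.19, 1.93 and 1.99 RPKM in the *Myc*; sg*Trp53* lines 1, 2 and 3 and at 40.6, 1.71 and 1.34 RPKM in the *Myc*; sg*Kmt2c* lines (log2 fold change 0.95, adjusted p = 0.794 from limma). As for *Glud1*, the level of *Myc*; sg*Kmt2c* line 1 stood far above those of the other 5. For *Gpt* the *Myc*; sg*Kmt2c* lines 2 and 3, with 11 and 10 reads, lay slightly below every *Myc*; sg*Trp53* line. *Hal*, the histidine ammonia-lyase gene of periportal hepatocytes, was at 4.95 RPKM in the same line and at most at 0.0925 RPKM in the others. *Gpt2* was above *Gpt* per transcript length in every line.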
